A study of Mus musculus with 6 samples.

Results

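Cells rid themselves of cholesterol, or store it safely, by a short series of steps, and the 8 genes described here each serve one of them. They were chosen by name from a list of 9 genes of cholesterol efflux, esterification and lysosomal export, out of 18194 genes with a probe set of their own in the array's annotation. A probe set was used only where the annotation pairs it with exactly 1 gene, and the genes Abca1, Abcg1, Scarb1, Lipa, Npc1, Npc2, Mylip and Osbpl3 had 20 such probe sets of 45101 on the array. The other listed gene, of the esterification step, was not analysed here. All 8 genes kept at least 1 probe set after the dimmest probe sets were left out, and 17 of the 20 probe sets were tested.

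The RNA came from the white epididymal fat pads of males at 10 weeks of age, with 1 mouse per Affymetrix array and 3 mice per group. The first group carried the aP2-nSrebp1c transgene, which makes the truncated, active SREBP-1c protein that switches on fatty acid synthesis genes, on a C57BL6;SJL background. The second group were wild type males of the same background, described as matched by litter. The strain field spells the transgene in 3 ways over the 3 transgenic mice (aP2-nSrebp1c, aP2-nSrebp1 and aP2-SREBP1c), while the titles are uniform. The aP2 (Fabp4) promoter is that of a fatty acid binding protein of fat cells, and macrophages are known to use it too. The mice are described as lipodystrophic, with fat that is lost or poorly formed. The values are MAS5 signals, which are linear intensities with 1 value per probe set and array, and the signal of a probe set is not a level that can be set against that of another; sums over marker genes below serve only to compare arrays, and bright genes weigh most in them.

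Cholesterol that enters a cell in lipoproteins reaches the lysosome as cholesteryl ester. Acid lipase frees it there, and a relay of a soluble and a membrane protein moves it out to other membranes. Cells with too much sterol then switch on LXR, a nuclear receptor for oxysterols, which raises the transporters that pass cholesterol to lipoproteins and an enzyme that degrades lipoprotein receptors. Fat tissue holds a large store of free cholesterol in its lipid droplets, and the macrophages within it take up lipid from fat cells.

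The array of transgenic replicate 2 stood apart in control ratios and in its median signal. The 3′ to 5′ signal ratio of beta-actin was 122 on it, against 1.11 to 1.81 on the other 5 arrays. Its median signal was 37.7, against 61.7 and 62.5 in the other transgenic mice and 53.4 to 65.4 in wild type mice. The ratio of the Gapdh control was also high on this array (55.9), while that of the Pcx control (14.1) lay between those of other arrays. High ratios of this kind are usual where RNA is shortened, which was not tested here. The results of the 8 genes are given with and without this array. The labelled tissue showed its defining markers. The summed signal of 6 adipocyte marker genes was 28730 to 37181 in transgenic fat and 53222 to 58973 in wild type fat. That of 8 macrophage genes was 20028 to 27223 in transgenic fat and 13229 to 15406 in wild type fat. For 6 genes listed as markers of lipid-associated macrophages it was 8449 to 14531 in transgenic fat and 1439 to 2313 in wild type fat. The sums of 5 endothelial genes (1552 to 4156 in transgenic fat and 5197 to 5752 in wild type fat) and of 5 mesothelial genes (520 to 1721 in transgenic fat and 4324 to 5034 in wild type fat) lay the other way. The groups did not overlap in any of these 5 sums. They were also apart for skeletal muscle (114 to 323 in transgenic fat and 486.5 to 1156 in wild type fat, 4 genes) and red blood cells (199.8 to 471.5 in transgenic fat and 656.2 to 831.7 in wild type fat, 2 genes). Those differences came from Acta1 and Alas2. The means of Ckm and Hba-a1 were higher in transgenic fat (98.9 and 46.6) than in wild type fat (83.6 and 35.3). The sums were higher in transgenic fat for B and T cells (269.8 to 398.2 in transgenic fat and 147 to 205.7 in wild type fat, 4 genes) and for steroid-making cells (1101 to 1547 in transgenic fat and 195.4 to 236.7 in wild type fat, 4 genes, mostly from Star). Of the B and T cell genes, Ms4a1, Cd79a and Cd3d overlapped between the groups, and Cd3e did not. Every transgenic mouse was above every wild type mouse for 3 of 8 macrophage genes and 4 of 6 of lipid-associated macrophages. Every one was below for 5 of 6 adipocyte, 3 of 5 endothelial and 5 of 5 mesothelial genes. Of all tested genes 14.1% lay above and 16.3% below. The mean of Fabp4 was 13343 in both groups. That of Itgam was 191.9 in transgenic fat and 198.7 in wild type fat. With 6 arrays 1 of 8 macrophage genes and 2 of 6 genes of lipid-associated macrophages rose. In the same fit 2 of 6 adipocyte, 0 of 5 endothelial and 2 of 5 mesothelial genes fell. Of all tested genes 2.23% rose and 1.54% fell. Without transgenic replicate 2 these 5 counts were 4, 5, 4, 3 and 4, where 8.04% rose and 7.33% fell. The part that any of these cells have in the results below was not tested, and in whole tissue fewer cells of a type and less RNA per cell cannot be told apart. Markers of epididymis epithelium were dim, with sums of 41.6 to 122 in transgenic fat and 50.3 to 104.5 in wild type fat over 4 genes, and so were those of testis germ cells, at 89.4 to 108.7 in transgenic fat and 35.7 to 98.2 in wild type fat over 4 genes.

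Of the 8 genes, Lipa rose in transgenic fat (12.5%), 0 fell and 7 missed the threshold, where 2.23% of all 13112 tested genes rose and 1.54% fell. A gene was read from its brightest tested probe set and called at an adjusted p under 0.05 in a limma fit over all 27023 tested probe sets. In 6 of the 8 genes all 3 transgenic mice lay above all 3 wild type mice, as did 14.1% of all genes, and in 0 they lay below, as did 16.3% of all genes. The median log2 fold change of the 8 genes was 0.70, against −0.04 over all tested genes. Without transgenic replicate 2, Lipa, Abca1, Abcg1 and Osbpl3 rose, 4 of 8, and 0 fell, where 8.04% of all genes rose and 7.33% fell. The median was then 0.65, against 0.02 over all genes. Scarb1 was the 1 gene of the 8 with an estimate below 0 in the fit of 6 arrays.

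**Figure D1:**
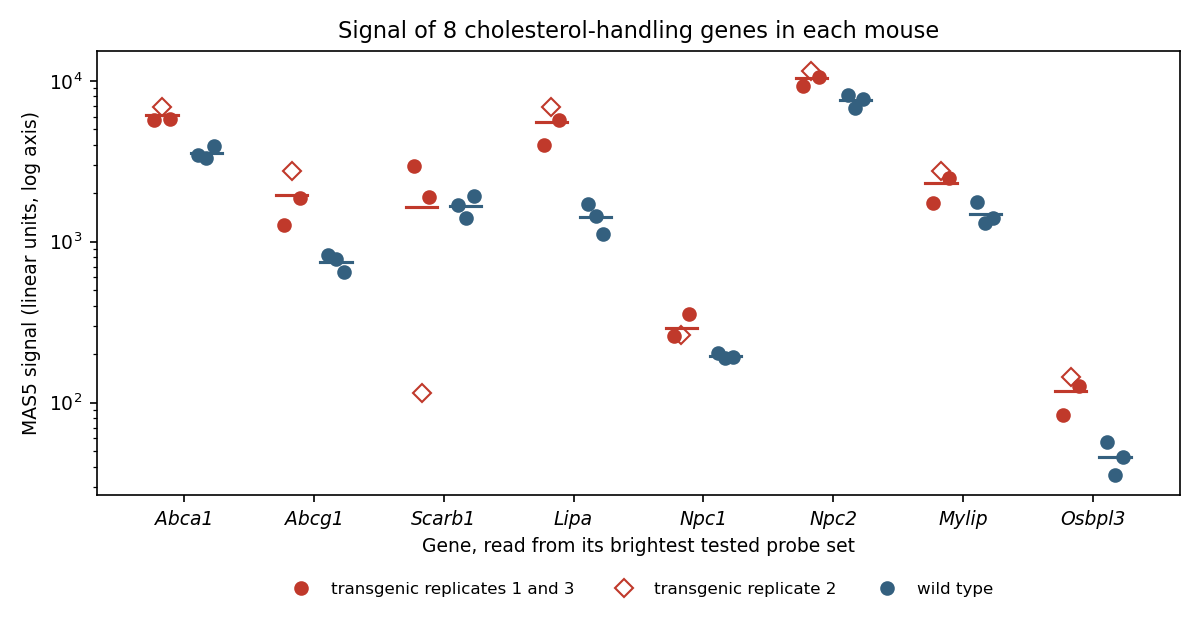
MAS5 signal (log axis) of the 8 genes in each mouse, read from the brightest tested probe set of each gene, with transgenic mice in red to the left, wild type mice in blue to the right and a bar at each group mean of 3 mice. The open diamond is transgenic replicate 2, which is low for Scarb1 (114.4) and is the highest of the 6 mice for Abca1, Abcg1, Lipa, Npc2, Mylip and Osbpl3.

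Lipa encodes lysosomal acid lipase, which splits the cholesteryl esters and triglycerides that reach the lysosome. Its brightest probe set (1450872_s_at, where the suffix s marks probes that can match transcripts of more than 1 gene) had signals of 4014, 6918 and 5705 in transgenic replicates 1, 2 and 3 and of 1710, 1435 and 1124 in wild type replicates 1, 2 and 3. The lowest transgenic mouse thus stood well above the highest wild type mouse. The means were 5546 ± 1458 in transgenic fat and 1423 ± 294 in wild type fat (SD, n = 3 each), a 3.83-fold rise (log2 fold change 1.94 ± 0.27 SE, adjusted p = 0.0152). The call did not hold with 4 of the 6 arrays left out singly: the adjusted p was 0.0999, 0.087 and 0.066 without wild type replicates 2, 3 and 1 and 0.0745 without transgenic replicate 3. It was 0.0211 without transgenic replicate 1 and 0.000788 without transgenic replicate 2.

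The other probe sets of Lipa set the groups apart in the same direction, except for transgenic replicate 2 on 1 of them. Probe set 1423140_at had 2285, 4080 and 4239 in transgenic mice and 1010, 848.6 and 571.3 in wild type mice, and rose 4.25-fold (2.09 ± 0.33 SE, adjusted p = 0.0257, and 0.0885 to 0.136 without transgenic replicate 3 or any 1 wild type mouse). Probe set 1423141_at had 1685, 93.9 and 2681 in transgenic mice and 495.5, 415.6 and 558.7 in wild type mice. The single low value is that of transgenic replicate 2. With it the log2 fold change was 0.66 ± 1.12 SE (adjusted p = 0.79), and without it the probe set rose by 2.09 ± 0.23 SE (adjusted p = 0.000407). Without that array the 3 probe sets of Lipa gave 1.76, 1.96 and 2.09, and each passed the test.

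The 250 bases before the annotated start of Lipa are shown because it is the gene called in the fit of 6 arrays, and those of Abca1 because its window is the only one of the 5 searched with a motif. Sequences are from RefSeq (GRCm38.p6), read 5′ to 3′ on the gene's strand. They were searched on both strands, with the first bases after the start site, for TCACCCCAC (the core of the sterol regulatory element bound by SREBP), TCACGTGA (the core of the element of lysosome genes bound by TFEB), CACGTG (the E-box) and an exact pair of AGGTCA copies in 1 direction with 4 bases between them (the textbook form of the LXR element, from which working elements often differ). A looser form of that pair, NGGTNANNNNNGGTCA, was added after the sequences were seen, since LXR is known to act on Abca1 through an imperfect element near its start. TCACGTGA contains CACGTG, so the counts of those motifs overlap. Capitals mark the E-box and, nearer the start site, the looser LXR pair, which reads on the opposite strand.
Abca1, chr4:53159896-53160145, minus strand: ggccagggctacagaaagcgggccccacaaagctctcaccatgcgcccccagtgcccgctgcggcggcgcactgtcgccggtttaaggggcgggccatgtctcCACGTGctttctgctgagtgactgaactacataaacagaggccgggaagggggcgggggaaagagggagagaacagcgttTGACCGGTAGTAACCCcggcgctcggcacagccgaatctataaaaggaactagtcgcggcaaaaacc
Lipa, chr19:34527475-34527724, minus strand: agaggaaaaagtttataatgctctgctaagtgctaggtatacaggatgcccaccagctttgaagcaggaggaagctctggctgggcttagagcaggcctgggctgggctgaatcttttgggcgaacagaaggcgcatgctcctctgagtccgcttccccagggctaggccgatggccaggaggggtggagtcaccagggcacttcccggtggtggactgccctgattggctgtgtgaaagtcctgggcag

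Windows were in the table for 5 of the 8 genes (Abca1, Lipa, Npc2, Mylip and Osbpl3). In Abca1 the E-box begins 147 bases and the looser LXR pair 67 bases before the start site, and the windows of the other 4 genes hold none of the motifs searched. Of 32851 promoter windows of the same length in the table, 7.15% hold the E-box, 0.974% the lysosomal core and 0.551% the sterol regulatory core. The exact LXR pair is in 0.0152% and the looser one in 0.207%. The looser form was chosen with the Abca1 sequence in view, so its share does not measure how unusual that match is. These matches describe letters in a window of 300 bases and say nothing about binding.

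Npc2 and Npc1 act in the lysosome after the lipase. Npc2 is the small soluble protein that picks up free cholesterol in the lumen, and Npc1 is the membrane protein that receives it; loss of either causes Niemann-Pick disease type C. The brightest probe set of Npc2 (1448513_a_at) had signals of 9292, 11512 and 10633 in transgenic mice and 8197, 6781 and 7710 in wild type mice. The groups did not overlap, but the log2 fold change of 0.47 ± 0.14 SE did not pass the test (adjusted p = 0.158), nor did the 0.40 ± 0.14 SE without transgenic replicate 2 (adjusted p = 0.0944). A second bright set (1416901_at) had 8849, 7115 and 11130 in transgenic mice and 7265, 6557 and 7384 in wild type mice, and its groups overlapped through transgenic replicate 2 (0.33 ± 0.18 SE, adjusted p = 0.43).

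Another probe set of Npc2 gave a larger difference. Set 1455768_at had 1051, 709.0 and 1523 in transgenic mice and 399.4, 340.7 and 314.1 in wild type mice, means of 1094 ± 409 and 351 ± 43.6 (SD, n = 3 each). Its log2 fold change was 1.53 ± 0.33 SE (adjusted p = 0.0633), and 1.81 ± 0.21 SE without transgenic replicate 2 (adjusted p = 0.000591), a 3.50-fold rise. The tested sets of Npc2 thus gave estimates of 0.47, 0.33 and 1.53. Which of them follows the transcript best was not tested. The remaining set (1443266_at) was too dim to test, at 1.8 to 19.7 in transgenic mice and 1.9 to 7.1 in wild type mice.

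Npc1 has 1 probe set (1423086_at). Its signals were 260.9, 262.7 and 355.0 in transgenic mice and 202.1, 190.7 and 191.2 in wild type mice, so every transgenic mouse was above every wild type mouse by a small margin. The means were 293 ± 53.8 and 195 ± 6.44 (SD, n = 3 each). The log2 fold change of 0.54 ± 0.24 SE did not pass the test (adjusted p = 0.322), nor did 0.61 ± 0.20 SE without transgenic replicate 2 (adjusted p = 0.0875).

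**Figure D2:**
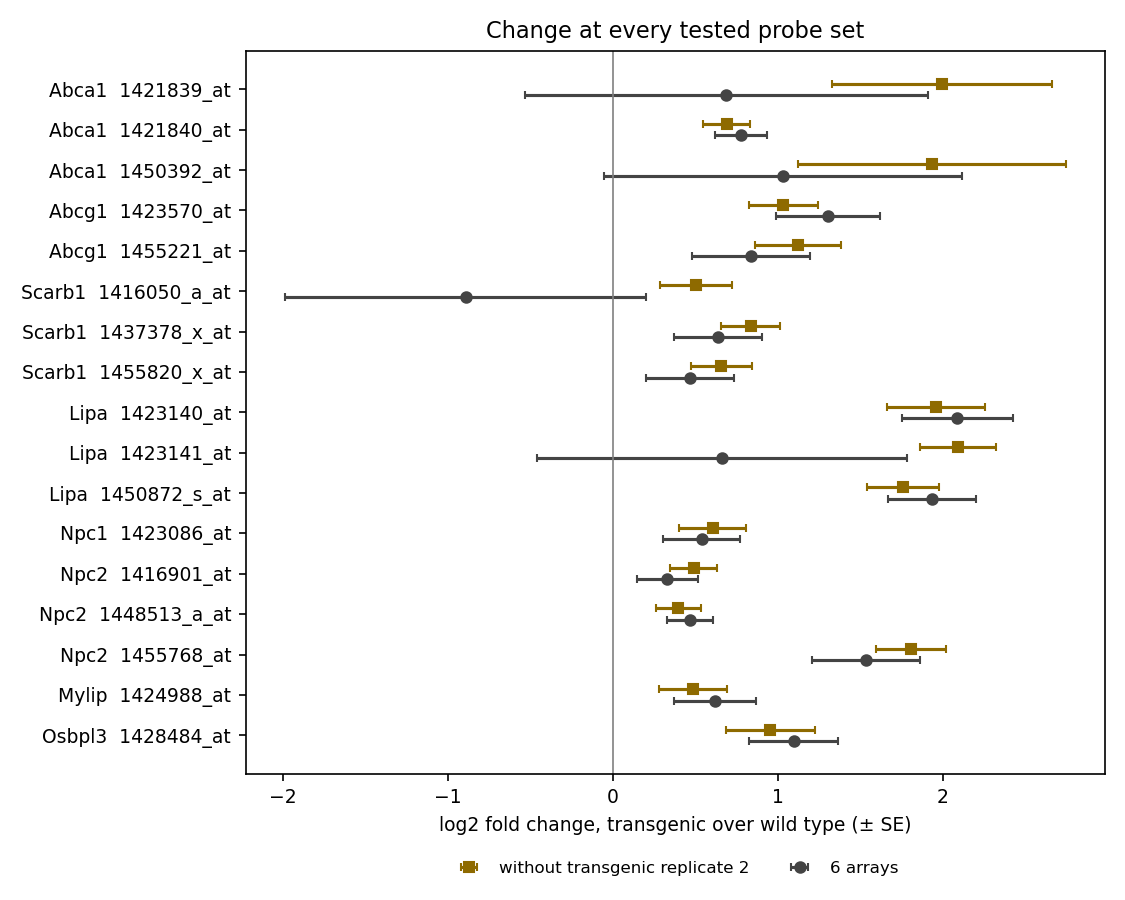
Log2 fold change, transgenic over wild type, at each of the 17 tested probe sets with its standard error, from the fit of 6 arrays (grey circles) and from the fit without transgenic replicate 2 (brown squares). Without that array all 17 estimates lie above 0, and the wide bars of the 6-array fit at Abca1 1421839_at, Abca1 1450392_at, Scarb1 1416050_a_at and Lipa 1423141_at narrow, least of all at the Abca1 sets.

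The next genes act in efflux. Abcg1 encodes a transporter that moves cholesterol to mature high-density lipoprotein particles and is a textbook target of LXR. Its brightest probe set (1423570_at) had 1276, 2738 and 1881 in transgenic mice and 822.8, 782.4 and 651.7 in wild type mice. The groups were clear of each other, at means of 1965 ± 734 and 752 ± 89.4 (SD, n = 3 each), but the spread among transgenic mice was wide and the log2 fold change of 1.31 ± 0.32 SE did not pass the test (adjusted p = 0.0923). It passed without transgenic replicate 2, as a 2.05-fold rise (1.03 ± 0.21 SE, adjusted p = 0.0111), and without transgenic replicate 1 (1.58, adjusted p = 0.0491). The adjusted p was 0.346 without wild type replicate 3 and 0.167 after median centring. The second set (1455221_at), at 278.8, 186.4 and 439.7 in transgenic mice and 185.2, 116.4 and 162.5 in wild type mice, was also higher in each transgenic mouse, though by a hair at the closest pair. Its estimates were 0.84 ± 0.36 SE (adjusted p = 0.311) and, without transgenic replicate 2, 1.12 ± 0.26 SE (adjusted p = 0.0211).

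Abca1, the transporter that loads cholesterol and phospholipid onto lipid-poor apolipoprotein A-I and the gene mutated in Tangier disease, was higher in every transgenic mouse at its brightest probe set (1421840_at). The signals were 5682, 6901 and 5793 in transgenic mice and 3438, 3312 and 3932 in wild type mice, with means of 6125 ± 674 and 3561 ± 328 (SD, n = 3 each). The log2 fold change of 0.78 ± 0.16 SE did not pass the test (adjusted p = 0.0558). The adjusted p was 0.0443 when the dimmest 60% of probe sets were left out in place of 40%, 0.128 with no filter, 0.185 after median centring and 0.289 without wild type replicate 2. Without transgenic replicate 2 it was 0.69 ± 0.14 SE and passed (adjusted p = 0.011), a 1.61-fold rise.

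The other probe sets of Abca1 varied within both groups. Set 1421839_at had 1499, 76.9 and 1290 in transgenic mice and 101.3, 375.1 and 941.0 in wild type mice. Set 1450392_at had 351.4, 30.9 and 239.7 in transgenic mice and 13.0, 37.4 and 316.6 in wild type mice. On both sets wild type replicate 3 was the highest of its group and wild type replicate 1 the lowest, while 1421840_at hardly varied among the same mice. The arrays also differed in the Pcx control, whose 3′ to 5′ ratio was 3.10 in transgenic replicate 1 and 3.06 in wild type replicate 3, against 14.1 and 44.2 in the other transgenic mice and 40.6 and 52.0 in the other wild type mice. Within each group the array with the low ratio had the highest signal on both Abca1 sets. Transgenic replicate 3, with the ratio of 44.2, was also high on both. Whether the signals depend on this ratio was not tested. Neither set passed the test with 6 arrays (0.69 ± 1.22 SE, adjusted p = 0.80; 1.03 ± 1.08 SE, adjusted p = 0.661) or without transgenic replicate 2 (1.995 ± 0.669 SE, adjusted p = 0.0886; 1.93 ± 0.81 SE, adjusted p = 0.166).

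Scarb1, the high-density lipoprotein receptor that exchanges cholesterol in both directions and takes up cholesteryl ester selectively, changed sign with 1 array at its brightest probe set. That set (1416050_a_at) had 2938, 114.4 and 1901 in transgenic mice and 1694, 1410 and 1920 in wild type mice. Transgenic replicate 2 was far below every other mouse. The log2 fold change was −0.89 ± 1.10 SE with it (adjusted p = 0.708) and 0.50 ± 0.22 SE without it (adjusted p = 0.178), so the sign turned and neither value passed the test. The other sets were steadier. Set 1437378_x_at had 1083, 697.2 and 1043 in transgenic mice and 651.0, 514.2 and 608.0 in wild type mice, with no overlap (0.64 ± 0.27 SE, adjusted p = 0.30; without transgenic replicate 2 it rose by 0.84 ± 0.18 SE, adjusted p = 0.0142). Set 1455820_x_at had 902.9, 618.9 and 964.5 in transgenic mice and 648.7, 503.6 and 613.2 in wild type mice (0.47 ± 0.27 SE, adjusted p = 0.443; without that array it rose by 0.66 ± 0.18 SE, adjusted p = 0.0443). The suffix x marks sets in which some probes also match other sequences, so these values carry that doubt.

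Mylip encodes IDOL, a ubiquitin ligase and LXR target that sends lipoprotein receptors to degradation. Its 1 probe set (1424988_at) had 1743, 2753 and 2481 in transgenic mice and 1756, 1309 and 1409 in wild type mice, and the groups overlapped at transgenic replicate 1 and wild type replicate 1. The log2 fold change was 0.62 ± 0.25 SE (adjusted p = 0.283), and 0.49 ± 0.20 SE without transgenic replicate 2 (adjusted p = 0.167). Osbpl3 encodes an oxysterol-binding protein relative that works at contacts between the endoplasmic reticulum and other membranes. Its tested set (1428484_at) was dim, at 83.9, 144.0 and 126.1 in transgenic mice and 57.0, 35.4 and 45.9 in wild type mice, and the groups did not overlap. The log2 fold change was 1.10 ± 0.27 SE (adjusted p = 0.0976), and 0.95 ± 0.27 SE without transgenic replicate 2, which passed (adjusted p = 0.0468). With 6 arrays it was 0.72 with an offset of 64 and 1.33 with an offset of 1, and the set is among the dimmest 60%, so it was not tested when those were left out. The other sets of Osbpl3 were too dim to test, at 2.7 to 29.8 over both sets in transgenic mice and 1.0 to 23.8 in wild type mice.

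By probe set, 2 of the 17 tested sets rose (11.8%), where 1.67% of all tested probe sets rose, and in 10 of 17 every transgenic mouse was above every wild type mouse, where 11.9% of all probe sets were so placed. Without transgenic replicate 2, 10 of 17 rose, where 6.96% of all probe sets rose. The sets of a gene share its transcript and are not independent. The log2 estimate was above 0 at 16 of the 17 sets with 6 arrays and at 17 of 17 without transgenic replicate 2. Over all 27023 tested probe sets the median estimate was −0.09 with 6 arrays and 0.03 without that array. The class of low Pcx ratio holds 1 array per group and allows no test. There the brightest sets differed by 0.27 to 1.82 on the log2 scale, transgenic replicate 1 minus wild type replicate 3, above 0 for all 8 genes and for 42.7% of all tested genes. In the other class 7 of 8 differences were above 0, from −1.64 for Scarb1 to 1.99 for Lipa, as were 50.1% over all genes. With transgenic replicate 2 left out of that class they were 0.30 to 1.85, and 62.5% of all genes were above 0.

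Transgenic replicate 2 differed from its own group in opposite directions at different sets of Lipa, Abca1, Abcg1 and Npc2, but not of Scarb1. At Lipa its signal was 0.043 times the mean of transgenic replicates 1 and 3 on 1423141_at, and 1.25 and 1.42 times that mean on 1423140_at and 1450872_s_at. At Abca1 the ratios were 0.0551 and 0.105 on the sets that varied and 1.203 on 1421840_at. At Abcg1 they were 1.73 on 1423570_at and 0.519 on 1455221_at. At Npc2 they were 0.712 on 1416901_at, 1.16 on 1448513_a_at and 0.551 on 1455768_at. At Scarb1 they were 0.0473, 0.656 and 0.663, all below 1. Of the 17 sets 4 were under 0.2 and 7 were above 1. Over all 27023 tested probe sets 13.6% were under 0.2 and 37.6% above 1, with a median of 0.771. Where on the transcript each set lies was not tested.

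**Figure D3:**
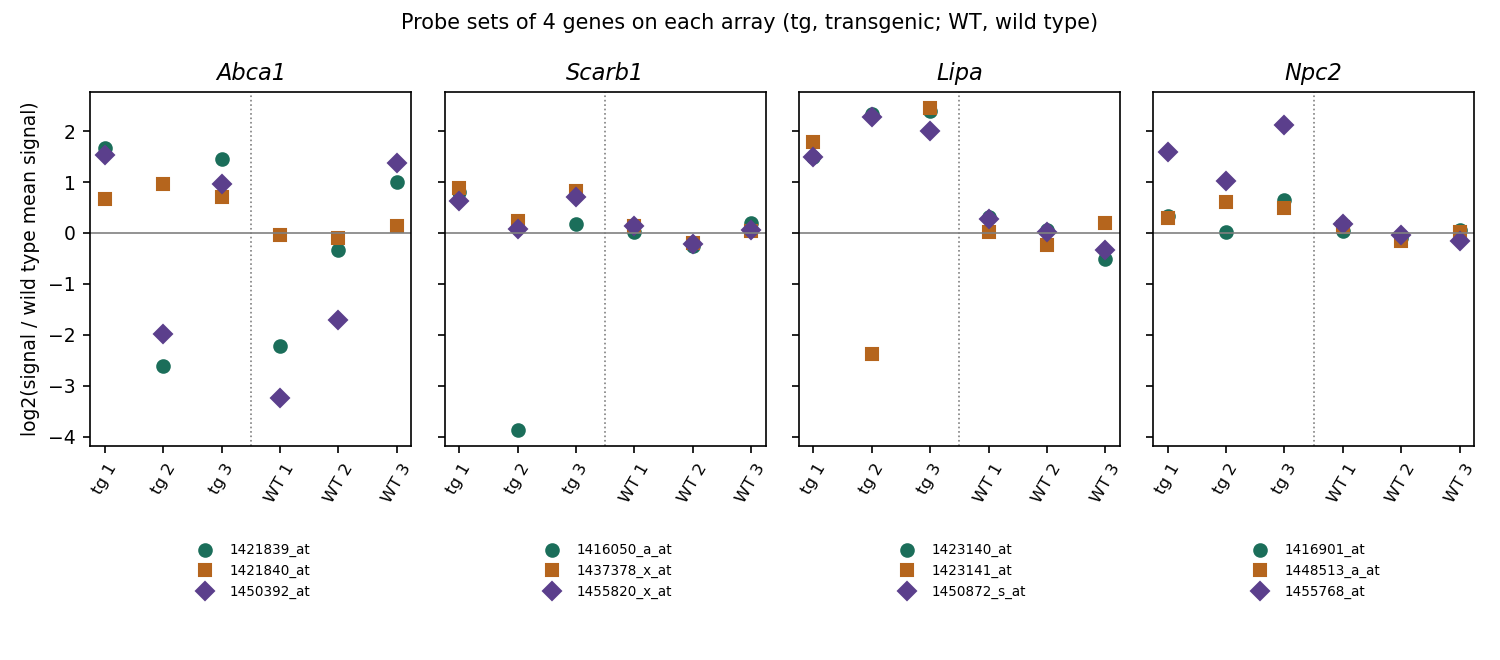
Signal of each tested probe set of Abca1, Scarb1, Lipa and Npc2 on each array, as log2 of its ratio to the wild type mean of the same set, with transgenic arrays (tg) left of the dotted line and wild type arrays (WT) right of it. On transgenic replicate 2 the sets of Lipa part, with 1423141_at far below 0 and the other sets above 2, and the sets 1421839_at and 1450392_at of Abca1 spread widely among wild type arrays as well.

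Other genes of the pathway were read from lists by role, and their counts stand against the 2.23% of all genes that rose and 1.54% that fell with 6 arrays, and 8.04% and 7.33% without transgenic replicate 2. Without that array each gene named here from these lists passed the test in the same direction, at −1.99 for Ces1d and from 0.81 for Pltp to 4.15 for Olr1. Among 11 measured genes of LXR and its other targets 3 rose, 0 fell and 8 were not called, with a median log2 fold change of 0.13, and 5 rose without transgenic replicate 2. The 3 that rose were Apoc2, Apoc1 and Pltp. Apoc2, the cofactor of lipoprotein lipase, had 430.6, 419.9 and 679.9 in transgenic mice and 79.1, 64 and 90.9 in wild type mice (2.46 ± 0.28 SE, adjusted p = 0.00763, and 0.0514 to 0.0768 without any 1 wild type mouse). Apoc1, its neighbour in the apolipoprotein cluster, rose 4.30-fold (2.10 ± 0.18 SE, adjusted p = 0.00327). Pltp, the phospholipid transfer protein that remodels lipoproteins, was read from a set with the suffix s and had 8894, 10977 and 9556 in transgenic mice and 5336, 5043 and 5410 in wild type mice. It rose by 0.89 ± 0.13 (SE, adjusted p = 0.0213, and 0.0791 to 0.14 without transgenic replicate 3 or any 1 wild type mouse), and did not pass without an intensity trend (adjusted p = 0.0818), after median centring (0.117) or with no filter (0.0737).

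Among 17 other sterol transfer proteins 1 rose, 0 fell and 16 were not called (median 0.11); the counts were 4 and 2 with transgenic replicate 2 left out. The gene that rose was Stard4, a soluble carrier of cholesterol between membranes, at 929.0, 1150 and 1394 in transgenic mice and 213.6, 169.8 and 192.4 in wild type mice (2.48 ± 0.26 SE, adjusted p = 0.00554, and 0.063 and 0.0506 without wild type replicates 2 and 3). Of 4 other enzymes of cholesteryl ester turnover 1 rose and 1 fell (median −0.78), and 1 rose and 2 fell without transgenic replicate 2. Nceh1, a neutral cholesteryl ester hydrolase of macrophages, had 340.6, 325.7 and 912.9 in transgenic mice and 101.2, 88.9 and 82.9 in wild type mice (2.18 ± 0.42 SE, adjusted p = 0.0462). That call lay close to the threshold, with adjusted p of 0.0505 with an offset of 1, 0.0632 with no filter, and 0.0721 to 0.221 without transgenic replicate 1 or any 1 wild type mouse. Ces1d, a carboxylesterase of fat and liver, fell by 1.93 on the log2 scale, with means of 1426 ± 318 in transgenic mice and 5421 ± 562 in wild type mice (SD, n = 3 each, adjusted p = 0.00809, and 0.0566 to 0.0813 without any 1 wild type mouse).

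Of 6 lipoprotein and scavenger receptors Olr1 alone passed the test with 6 arrays (median 0.29), and 2 rose and 1 fell without transgenic replicate 2. Olr1 encodes a receptor for oxidised low-density lipoprotein, and had 735.0, 874.2 and 698.0 in transgenic mice and 38.3, 13.6 and 27.7 in wild type mice. It rose by 4.24 ± 0.29 (SE, adjusted p = 0.00164) and passed whichever array was left out. Its size was 3.21 with an offset of 64 and 4.91 with an offset of 1. Of 9 SREBP2 targets and sterol sensors 5 rose and 0 fell (median 1.44), and 6 rose without transgenic replicate 2. Idi1 (11.5-fold, 3.53 ± 0.19 SE, adjusted p = 0.000924), Sqle (11.0-fold, 3.47 ± 0.24 SE, adjusted p = 0.00158) and Dhcr7 (8.81-fold, 3.14 ± 0.27 SE, adjusted p = 0.00327), enzymes of isoprenoid and sterol synthesis, showed the largest changes, above every estimate among the 8 cholesterol-handling genes. Of 4 oxysterol enzymes (median 0.53) and 11 other genes of the lysosome membrane and its regulators (median 0.25), 0 were called with 6 arrays. Without transgenic replicate 2, 3 of those 11 lysosome genes rose and 1 fell, and 0 oxysterol enzymes passed.

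**Figure D4:**
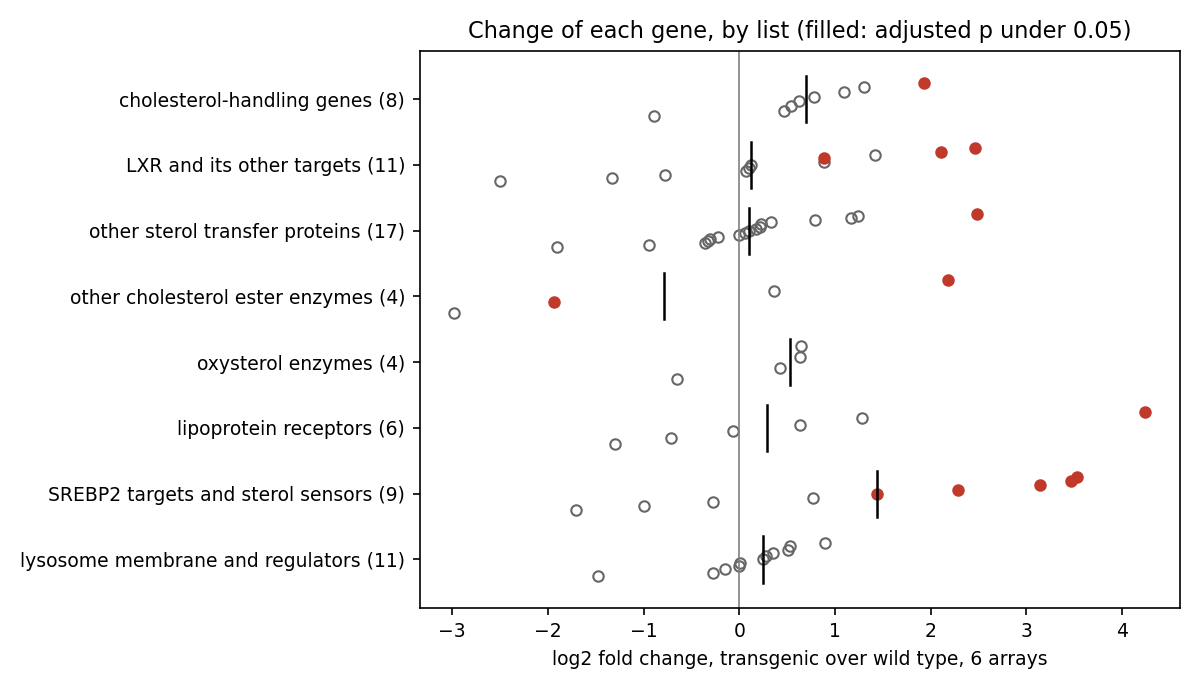
Log2 fold change, transgenic over wild type, of each measured gene by list in the fit of 6 arrays, with the number of genes in brackets, filled red circles for an adjusted p under 0.05 and a black line at the median of each list. The 8 cholesterol-handling genes have a median of 0.70, and 1 filled circle (Lipa), while 5 of the 9 SREBP2 targets and sterol sensors are filled.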

How the data were processed

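RNA of 6 mice was measured on Affymetrix arrays, 3 transgenic and 3 wild type. The deposited values are MAS5 signal intensities on a linear scale, per the submitters' processing notes, and the version of MAS5 was not given in the sources read. Array number limits the precision. Of 45101 probe sets, 34958 pair with 1 gene, 932 with several and 9211 with none in the platform annotation. Control probe sets (64) were dropped, and of the others the dimmest 40%, by mean log2(signal + 16). Groups were compared on log2(signal + 16) with lmFit and eBayes (trend = TRUE) of limma 3.58.1 in R 4.3.3, two-sided, with Benjamini-Hochberg adjustment over all 27023 tested probe sets and a threshold of 0.05. Every adjusted p is from this limma test, and fold changes on this scale understate those of dim genes. Each array held another animal. The p-values and standard errors rest on the spread among animals, which eBayes draws toward that of probe sets of like signal. Figures used matplotlib 3.10.9.

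The members, lists and tests were chosen with earlier results of these data known. Of each pathway list, up to 3 genes past the threshold with the largest change are named. Same-numbered mice of the groups did not deviate together (correlations −0.37, 0.09 and −0.05), and the numbers were not used as pairs. Alternatives were offsets of 1 and 64, no filter or 60%, quantile normalization, median centring, array weights, eBayes robust or with no trend, the replicate number or Pcx class (ratio under 10 or above) as a block, each array left out, and gene means over probe sets. Transgenic replicate 2 was also left out together with quantile normalization, or, chosen after seeing the data, with the Pcx class as a block.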

Additional observations from a re-analysis of the deposited data

How the results depend on the processing

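Over the whole array 802 probe sets were called with 6 arrays, 3565 without transgenic replicate 2 and 141 without wild type replicate 2, the highest and lowest counts with 1 array left out. The count was 3359 with array weights, 341 with the replicate block, 4954 without transgenic replicate 2 after quantile normalization and 5937 without it with the Pcx class as a block. Among the 8 cholesterol-handling genes, 1 (Lipa) was called, and all calls under every setting were rises. The count was 2 when the dimmest 60% were left out (Abca1 and Lipa) and after quantile normalization (Abcg1 and Lipa), 6 with array weights, and 6 without transgenic replicate 2 both after quantile normalization and with the Pcx class as a block. With 1 array left out it ran from 0 to 4. It was 0 with the replicate block, where Lipa had an adjusted p of 0.0548, and 0 with a gene's probe sets averaged, where Lipa had 1.56 (adjusted p = 0.0709). The replicate numbers showed no pairing, but deviations from the means of 3 mice per group cannot exclude it. The estimate for Scarb1, −0.89, turned to 0.28 with array weights, 0.0701 as a mean over its probe sets, 0.50 without transgenic replicate 2, and 0.43 without it after quantile normalization or with the Pcx class as a block, and was −1.75 without transgenic replicate 1. No value of these passed the test. Abca1 set 1421839_at ran from −0.11 without wild type replicate 1 to 1.995 without transgenic replicate 2, with −0.02 without transgenic replicate 1. Lipa set 1423141_at ran from −0.22 without transgenic replicate 3 to 2.09 without transgenic replicate 2. The causes were not tested. Over the whole array the median change was 0.03 on the log2 scale after quantile normalization and −0.09 without it.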

Other observations

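Some other genes of cholesterol traffic, named after their values were seen, belong beside the 8. Star encodes the protein that brings cholesterol into mitochondria for steroid synthesis, and was listed as a marker of steroid-making cells. Its signals were 1229, 1026 and 1499 in transgenic mice and 176.5, 156.9 and 205.4 in wild type mice, a 6.44-fold rise (2.69 ± 0.25 SE, adjusted p = 0.00416, at most 0.0498 with 1 array left out). Without transgenic replicate 2 it was 2.82 (adjusted p = 3.27e-05). Of the other steroid-making markers, Cyp17a1 and Hsd3b1 lay between 3.8 and 9.9 on every array, and Cyp11a1 had 58.7, 57.9 and 35.1 in transgenic mice and 36.6, 26.7 and 23.6 in wild type mice (0.56 ± 0.25 SE, adjusted p = 0.337). The part of such cells in the Star signal was not tested. Nr1h3, the gene of LXR alpha, had 987.9, 149.9 and 1278 in transgenic mice and 583.1, 531.3 and 547.2 in wild type mice, and rose by 1.001 without transgenic replicate 2 (adjusted p = 0.00645) but had 0.07 with 6 arrays (adjusted p = 0.969). Lpcat3, a phospholipid-remodelling target of LXR, had 4678, 587.4 and 4849 in transgenic mice and 875.3, 791.7 and 984.8 in wild type mice, with 2.41 (adjusted p = 2.32e-05) without that array and 1.42 (adjusted p = 0.428) with it. Rxra and Rxrb of the same list were lower in every transgenic mouse than in every wild type mouse. They had −1.32 and −0.78 with 6 arrays and −0.42 each without that array, and neither passed in either fit. Apoe, given below, is of that list too. Lipe was listed both with the enzymes of cholesteryl ester turnover and with the adipocyte markers. Its signals were 2220, 184.3 and 1507 in transgenic mice and 7136, 6203 and 7477 in wild type mice. The log2 fold change was −2.98 ± 0.84 SE with 6 arrays (adjusted p = 0.139). Without transgenic replicate 2 Lipe fell by 1.91 (adjusted p = 0.000192).

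Transgenic replicate 2 was far below the other transgenic mice at some bright probe sets. Apoe, the main apolipoprotein secreted by macrophages, had 12545, 39.4 and 12642 in transgenic mice and 11554, 11163 and 12337 in wild type mice, and Fdps, an enzyme of isoprenoid synthesis, had 6807, 21.3 and 7936 in transgenic mice and 736.5, 665.1 and 774.6 in wild type mice. Without that array Fdps rose by 3.32 (adjusted p = 4.41e-06) and Apoe had 0.11 (adjusted p = 0.606). Where their probe sets lie on the transcript was not tested.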
